A study of Homo sapiens with 3 samples.

Results

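mRNA levels were examined for 10 genes that are switched on downstream of the kinase ERK, most of which act to restrain it. The genes are the phosphatases DUSP1, DUSP4, DUSP5 and DUSP6, the inhibitors SPRY2, SPRY4 and SPRED1, the transcription factors ETV4 and ETV5, and PHLDA1. They were taken by symbol from the gene annotation of the count matrices, where all 10 of 10 were found among 36601 genes. The data come from OVCAR3, an established human line derived from high-grade serous ovarian cancer (HGSOC), so the cultures held cancer cells of 1 line and no other cell type was added. Cells were treated for 48 hours and profiled one by one by counting unique molecular identifiers (UMIs), 1 for each mRNA molecule that was captured. The DMSO library was vehicle alone, the RAC1i library received 50 μM of the RAC1 inhibitor NSC23766, and the Combo library received 50 μM RAC1i together with 5 μM of the EZH2 inhibitor GSK126. RAC1 is a small GTPase that acts on the cytoskeleton and on kinase signaling, and EZH2 is the histone methyltransferase that writes H3K27 methylation. Each condition was 1 library, so conditions could not be tested against each other. EZH2i given alone was not analysed here.

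Growth factor receptors activate RAS, RAF and MEK, and MEK in turn activates ERK. Active ERK raises the transcription of its own inhibitors, and their mRNA is therefore widely used as a readout of pathway output, although stress and inflammatory signals also act on several of these genes. The dual-specificity phosphatases remove the activating phosphates from ERK and related kinases, while Sprouty and SPRED proteins act further upstream, around RAS and RAF.

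The kept cells numbered 7531 in DMSO, 10215 after RAC1i and 8239 after Combo, with 199063947 to 234969742 UMIs per library. Median depth was 26750, 20989 and 24953 UMIs per cell and the median mitochondrial share was 5.6%, 1.66% and 1.58%, in the same order. At most 23 kept barcodes were shared by any pair of libraries. Levels are given as CPM, the UMIs of a gene over all kept cells of a library per 1000000 UMIs of that library, not divided by gene length. The 6 epithelial markers fixed for this line (PAX8, WT1, EPCAM, KRT8, KRT18 and MUC16) were detected in every library, although 3 of the 6 were over 2-fold lower in both treated libraries. PAX8 was at 355 CPM in DMSO, 54.3 CPM after RAC1i and 47.8 CPM after Combo, MUC16 was at 137, 43.3 and 37.6 CPM, and WT1 was at 0.326 and 0.246 of its DMSO level. Of 8 markers of other cell types, the most abundant was COL1A1 at 5.51 to 5.69 CPM, and the others were at or under 1.49 CPM (PECAM1 in Combo). RAC1 mRNA was at 462, 590 and 577 CPM and EZH2 mRNA at 32.1, 12.4 and 15.2 CPM in DMSO, RAC1i and Combo. Both drugs act on the proteins, so these mRNA levels do not check that either target was inhibited.

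Intervals are exact 95% intervals that cover counting error only, since the UMIs of a cell, and the cells of a culture, share their source. All 10 genes were higher in RAC1i than in DMSO, and all 10 were higher in Combo than in DMSO. A ratio was called when it was over 2-fold and the gene had a mean of at least 10 CPM over the 3 libraries, a minimum that 7 of the 10 genes passed and that DUSP6, SPRY4 and ETV5 did not. All 7 were called higher in RAC1i over DMSO, against 13.3% of the 7702 genes with that mean, and 0 were called lower, against 19.1%. All 7 were also called higher in Combo over DMSO, against 12.2%, and 0 lower, against 17.2%. Both comparisons use the same DMSO library. With 2 treated libraries in the mean, a gene high after treatment passes the minimum more easily than one high in DMSO alone, and of the 7 only DUSP1 was at 10 CPM or more in DMSO. PHLDA1, DUSP4, SPRY2, DUSP5 and ETV4 were at 0.412 to 5.60 CPM in DMSO. A gene that low reaches the minimum only if its treated libraries average over 2-fold higher. For these genes the minimum largely fixed the call, so the shares of the 7702 genes are not a fair comparison. With no minimum, 9 of 10 genes were over 2-fold higher in each comparison, with ETV5 the exception. Among all genes with a UMI in both libraries, 23.3% of 25457 were so in RAC1i over DMSO and 21.8% of 25339 in Combo over DMSO. The median log2 ratio over the 10 genes was 2.13 for RAC1i over DMSO and 1.96 for Combo over DMSO, while over all 7702 genes it was -0.10 and -0.07.

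**Figure D1:**
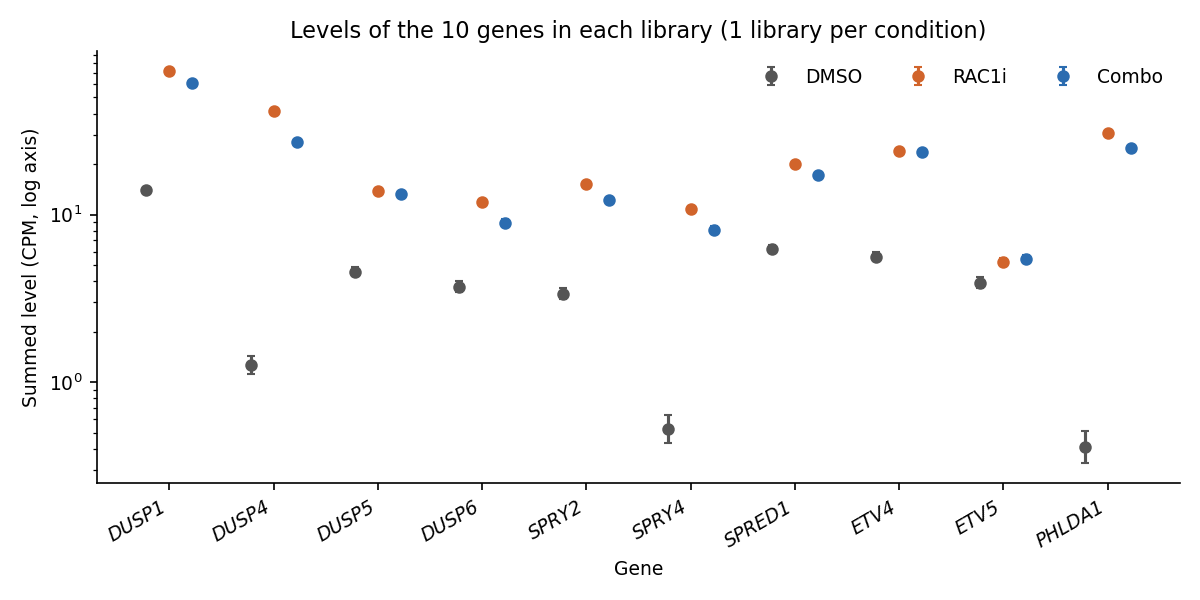
Level of each gene in the 3 libraries, in CPM on a log axis, with exact Poisson 95% intervals for counting error (1 library per condition). PHLDA1, SPRY4 and DUSP4 were at 0.412, 0.528 and 1.27 CPM in DMSO, and all 10 genes are higher in both treated libraries.

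Gene coordinates are those of GENCODE 44 on GRCh38. Among the phosphatases, the largest differences were in the nuclear enzymes DUSP1 and DUSP4. DUSP1 (chr5:172768096-172771195), an immediate early phosphatase of p38, JNK and ERK, was at 14.0 CPM in DMSO, 71.4 CPM after RAC1i and 60.6 CPM after Combo. Its ratio to DMSO was 5.11 (95% interval 4.91 to 5.32) in RAC1i and 4.34 (4.16 to 4.52) in Combo. DUSP4, a nuclear phosphatase of ERK and JNK encoded on chromosome 8, was nearly undetected in DMSO, with 252 UMIs in 7531 cells (1.27 CPM). It reached 41.3 CPM in RAC1i and 27.0 CPM in Combo, or 32.6-fold (28.8 to 37.1) and 21.3-fold (18.8 to 24.3) the DMSO level. The RAC1i ratio of DUSP4 ranked 22nd from the highest of the 7702 genes. DUSP5 (chr10:110497907-110511533), a nuclear phosphatase specific for ERK, differed less, with 4.57, 13.9 and 13.2 CPM in DMSO, RAC1i and Combo and a RAC1i ratio of 3.04 (2.83 to 3.28). DUSP6 (chr12:89347235-89352501), its cytoplasmic counterpart, was at 3.71, 11.9 and 8.94 CPM, and its RAC1i ratio was 3.20 (2.95 to 3.47). The intervals of DUSP5 and DUSP6 overlapped in RAC1i over DMSO, so the ERK-specific pair was not told apart there by counting error. In Combo over DMSO they did not overlap, at 2.89 (2.68 to 3.11) for DUSP5 and 2.41 (2.21 to 2.63) for DUSP6. This order depends on the measure. As a mean over cells of CPM, in place of summed UMIs, the log2 ratio in Combo over DMSO was 1.86 for DUSP5 and 1.90 for DUSP6, and in RAC1i over DMSO it was 1.95 and 2.29.

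SPRY2, SPRY4 and SPRED1 were each higher after treatment, and of these SPRY4 differed most. SPRY2 (chr13:80335976-80341126) was at 3.38 CPM in DMSO, 15.2 CPM after RAC1i and 12.1 CPM after Combo, for ratios to DMSO of 4.51 (4.15 to 4.90) and 3.59 (3.30 to 3.92). SPRY4 (chr5:142310427-142326455) rested on 105 UMIs in the DMSO library (0.528 CPM), while RAC1i held 2541 UMIs (10.8 CPM) and Combo 1729 (8.13 CPM). Its ratios of 20.5 (16.9 to 25.2) and 15.4 (12.6 to 18.9) stood well above those of SPRY2, with no overlap of the intervals. SPRED1 (chr15:38252836-38357249), which holds neurofibromin at the membrane to shut down RAS, was at 6.21, 20.02 and 17.2 CPM, with ratios of 3.23 (3.03 to 3.44) and 2.77 (2.60 to 2.96).

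The PEA3 family of ETS factors carries ERK output to transcription, and ETV4 and ETV5 had ratios of unlike size. ETV4 (chr17:43527844-43579620) was at 5.60 CPM in DMSO, 23.9 CPM after RAC1i and 23.6 CPM after Combo, a ratio of 4.27 (4.01 to 4.56) in RAC1i. ETV5 (chr3:186046314-186110318) was at 3.93, 5.20 and 5.43 CPM, and its ratios of 1.32 (1.21 to 1.45) and 1.38 (1.26 to 1.52) were the smallest of the 10 genes. The intervals of the paralogs did not overlap in either comparison with DMSO. ETV1, the third gene of the family and not among the 10, was under the minimum, at 0.226 CPM in DMSO, with ratios of 5.54 (4.03 to 7.75) in RAC1i and 7.48 (5.48 to 10.4) in Combo.

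PHLDA1 (chr12:76025447-76031776), a pleckstrin homology-like protein that is induced by growth factor and stress signals, had the largest ratio. The DMSO library held 82 UMIs of it (0.412 CPM), RAC1i 7181 (30.6 CPM) and Combo 5275 (24.8 CPM). This is 74.2-fold (59.7 to 93.4) in RAC1i and 60.2-fold (48.4 to 75.8) in Combo, and PHLDA1 ranked 7th and 8th from the highest of 7702 in these comparisons.

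**Figure D2:**
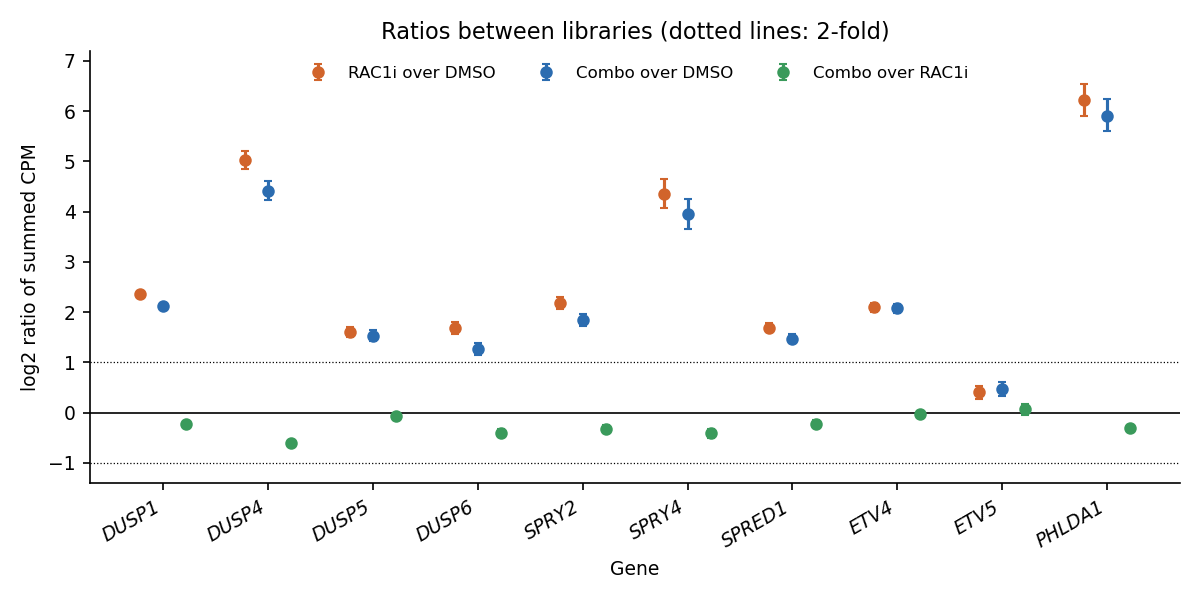
Log2 ratio of summed CPM between libraries for each gene, with exact conditional 95% intervals for counting error; dotted lines mark 2-fold. Ratios to DMSO lie above 1 on this scale for every gene but ETV5, and Combo over RAC1i lies between -0.61 (DUSP4) and 0.06 (ETV5).

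Promoter sequence was looked at because these genes were higher together. RefSeq promoters of GRCh38.p14 were matched by symbol for 6 of the 10 genes (DUSP1, DUSP6, PHLDA1, SPRED1, SPRY2 and SPRY4). In the 250 bases before each start site, both strands were searched for the CRE (TGACGTCA, bound by CREB and ATF factors), its core TGACG, the AP-1 site TGANTCA, the ETS core CCGGAA, the EGR site GCGTGGGCG and the CArG box. The CRE contains the core on both strands, so its matches are counted under both. The SPRY4 window (chr5:142324248-142324497) lies inside the gene coordinates given above, before an internal start site. So do the SPRY2 windows other than the most upstream. The DUSP1 window held 1 CRE, beginning 125 bases before the start site, whereas 1.65% of all 35116 promoter windows of this length hold one. It also held 4 matches of TGACG, which 21.2% of windows hold at least once. SPRY2, in the most upstream of its 3 windows, and PHLDA1 each held 1 ETS core, found in 14.5% of windows, and SPRY2 and SPRY4 each held 1 match of TGACG. No AP-1 site, EGR site or CArG box was matched in any of these windows, against 6.57%, 0.721% and 1.16% of all windows. DUSP6 and SPRED1 held no match of any of the 6 motifs. A match describes the letters only, and binding was not measured. The windows with matches of the CRE or the ETS core are shown 5′ to 3′ on the strand of the gene (the reverse strand for all 3), with matches of any searched motif, on either strand, in capitals.
DUSP1 (chr5:172771196-172771445): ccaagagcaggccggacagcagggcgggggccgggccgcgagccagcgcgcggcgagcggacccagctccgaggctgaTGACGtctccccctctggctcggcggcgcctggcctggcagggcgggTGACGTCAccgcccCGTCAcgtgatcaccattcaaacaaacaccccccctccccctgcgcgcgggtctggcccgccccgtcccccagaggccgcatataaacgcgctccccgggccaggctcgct
SPRY2 (chr13:80341127-80341376): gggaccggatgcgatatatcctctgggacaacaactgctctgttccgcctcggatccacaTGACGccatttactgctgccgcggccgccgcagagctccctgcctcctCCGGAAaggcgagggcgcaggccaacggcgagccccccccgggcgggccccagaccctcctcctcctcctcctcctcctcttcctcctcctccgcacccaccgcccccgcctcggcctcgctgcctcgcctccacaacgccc
PHLDA1 (chr12:76031777-76032026): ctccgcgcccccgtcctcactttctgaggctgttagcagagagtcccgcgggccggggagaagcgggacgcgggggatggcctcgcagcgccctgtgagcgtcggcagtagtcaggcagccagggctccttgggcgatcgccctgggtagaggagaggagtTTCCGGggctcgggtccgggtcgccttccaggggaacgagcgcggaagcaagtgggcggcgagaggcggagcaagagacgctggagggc

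Adding EZH2i to RAC1i went with slightly lower levels. The Combo level was under the RAC1i level for 9 of 10 genes, including all 7 with a mean of at least 10 CPM, against 46.4% of the 7702 genes. None passed 2-fold in either direction, and hardly any gene did, with 0.039% of the 7702 called higher and 0.013% called lower. DUSP4 was the lowest of the 10, at 0.653 of its RAC1i level (0.632 to 0.675), and ranked 23rd from the lowest of all 7702 genes. DUSP6, SPRY4 and SPRY2 were at 0.754 (0.711 to 0.799), 0.751 (0.706 to 0.799) and 0.798 (0.758 to 0.839). PHLDA1, DUSP1, SPRED1 and DUSP5 followed at 0.811, 0.849, 0.859 and 0.949, with intervals below 1. ETV4 at 0.986 (0.949 to 1.02) and ETV5 at 1.05 (0.963 to 1.13) had intervals that included 1. Related lists given below leaned the same way, at a mean of at least 10 CPM. Their median log2 ratios were -0.40 (other ERK output), -0.29 (receptor tyrosine kinases), -0.21 (other Sprouty and SPRED) and -0.16 (other phosphatases). The 7 genes were at -0.24 and all 7702 at 0.02. Chemokines were at -0.81, while ERK substrates and ETS repressors were at 0.04 and metallothioneins at 0.55. A lower level in Combo was thus not particular to the 10 genes. With 1 library per condition, a difference of the size seen in the 10 genes cannot be told apart from variation between cultures.

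The share of cells with a UMI was compared after thinning each cell at random to 5000 UMIs, since depth differed between libraries; 6725 DMSO, 9200 RAC1i and 7354 Combo cells were deep enough. DUSP1 was detected in 6.01% of DMSO cells (5.45 to 6.60), 27.7% of those in RAC1i (26.7 to 28.6) and 24.3% of those in Combo (23.3 to 25.3). DUSP4 was detected in 0.580%, 17.0% and 12.4% of cells, and PHLDA1 in 0.297%, 14.4% and 11.6%. For SPRY4 the shares were 0.223%, 5.76% and 4.54%. ETV5 again stood apart, at 1.99%, 2.58% and 2.69%. DUSP5, DUSP6, SPRY2, SPRED1 and ETV4 ran from 1.40% to 2.69% in DMSO, from 5.99% to 11.2% in RAC1i and from 4.99% to 10.9% in Combo. Without thinning, at the median depths given above, DUSP1 was found in 25.8%, 61.2% and 59.1% of kept cells, DUSP4 in 2.99%, 44.4% and 36.5%, and PHLDA1 in 0.916%, 40.9% and 38.4%. The other 7 genes then ran from 1.21% to 14.2% in DMSO, from 10.2% to 35.3% in RAC1i and from 11.7% to 36.7% in Combo. Free RNA in the droplets can put UMIs of a gene into cells without its expression, and a single cell line holds no second type of cell to compare with, so this background was not measured. A thinned cell that was positive mostly held a single UMI, with a mean of 1.00 to 1.32 UMIs per positive cell over the 10 genes and 3 libraries. The highest of these means was that of DUSP1 in RAC1i. At this depth the higher levels appear mainly as more cells with a UMI, and levels above 1 UMI per cell were seldom resolved.

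**Figure D3:**
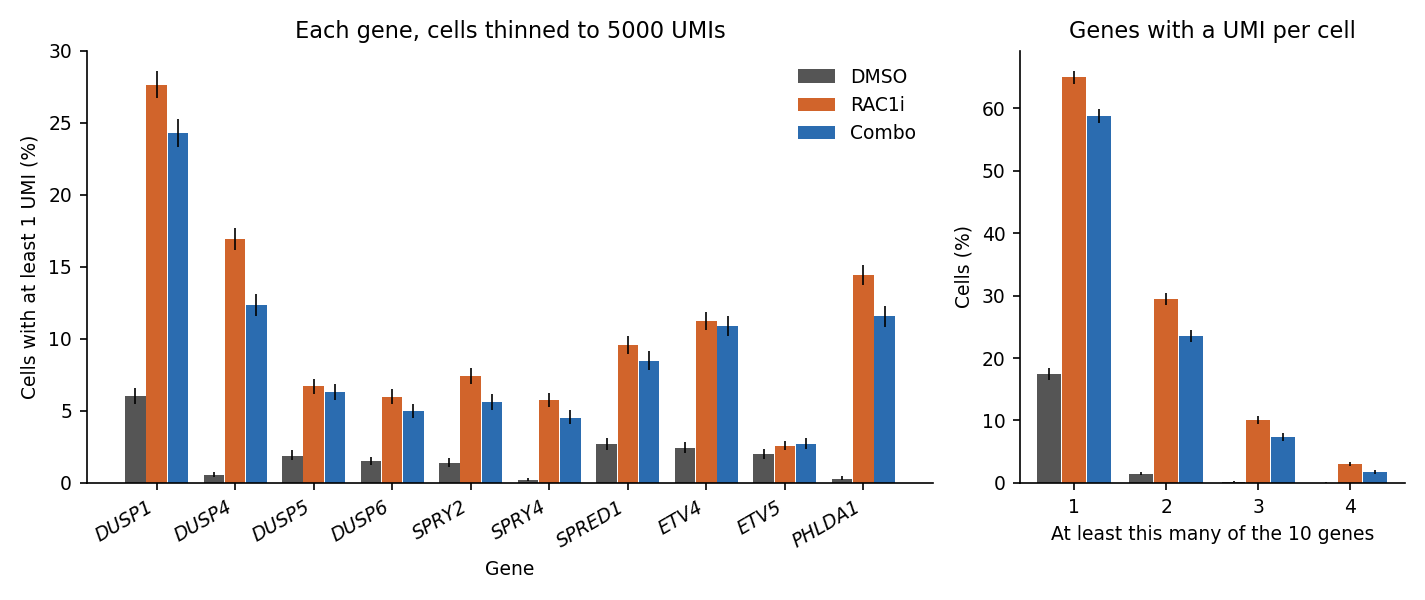
Left, the percentage of cells with at least 1 UMI of each gene after thinning to 5000 UMIs per cell; right, the percentage with a UMI of at least 1, 2, 3 or 4 of the 10 genes. Bars are single libraries and lines are Clopper-Pearson 95% intervals; DUSP1 is detected in the most cells of each library.

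Cells with several of the genes were rarer in DMSO than after treatment. At least 1 of the 10 genes was detected in 17.4% of DMSO cells (16.5 to 18.3), 64.9% of those in RAC1i (63.9 to 65.9) and 58.8% of those in Combo (57.7 to 59.9). At least 3 were detected in 11 of 6725 DMSO cells (0.164%), 929 of 9200 after RAC1i (10.1%) and 538 of 7354 after Combo (7.32%). These shares depend on the depth chosen, and at 10000 UMIs per cell they were 0.664%, 29.3% and 22.8%, in the same order. Higher levels of each gene alone raise such counts, so the pairs were also described within each library.

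Co-detection within a library was weak. Over the 45 pairs, Spearman's correlation across thinned cells ran from -0.02 to 0.05 in DMSO (n = 6725 cells), from -0.004 to 0.07 in RAC1i (n = 9200) and from -0.01 to 0.08 in Combo (n = 7354), with medians of 0.002, 0.03 and 0.02. With thinning to 10000 UMIs the medians were 0.005, 0.05 and 0.04. Cells of a library share a culture and a capture, and counts this sparse keep correlations near 0, so no pair is read as co-regulated. For the 3 genes detected in at least 2% of thinned cells of every library (DUSP1, SPRED1 and ETV4), the median over their pairs was 0.003 in DMSO, 0.02 after RAC1i and 0.03 after Combo. In DMSO the highest was SPRY2 with SPRY4 at 0.05, where only 2 cells held both. In each treated library the highest pair included DUSP4, which reached 0.08 with PHLDA1 in Combo, where 167 cells held both, and 0.07 with DUSP6 in RAC1i, where 153 cells held both. As an odds ratio, these pairs were at 1.90 and 1.98, meaning that cells with one gene had about those odds, relative to cells without it, of holding the other. The order changed with this measure, by which other pairs were highest. These were DUSP6 with SPRY4 at 2.31 in RAC1i, where 64 cells held both, and DUSP4 with DUSP6 at 2.14 in Combo, where 82 did. In Combo DUSP6 with SPRY4 was at only 1.09, where 18 cells held both. These values were not set against pairs of other genes, so they do not show that the 10 genes were found together more than other genes.

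Genes most like DUSP1, SPRED1 and ETV4 across cells were ranked by the lowest of their 3 within-library correlations, over 6535 genes with at least 10 CPM in every library. For DUSP1 they were FOS, ADAMTS1 and FJX1, whose lowest correlations were 0.06, 0.05 and 0.05. For SPRED1 they were CCND1, SETD5 and DHX36 (0.05, 0.04 and 0.03), and for ETV4 they were CCND1, CLDN16 and TIMP2 (0.04, 0.04 and 0.03). All are weak and are given only as the order found. DUSP1 correlated more with some immediate early genes in treated cells alone: with KLF10 it was 0.02 in DMSO, 0.18 after RAC1i and 0.14 after Combo, and with JUNB 0.03, 0.15 and 0.15. With FOS, also an immediate early gene, it was 0.07, 0.06 and 0.08, in the same order. KLF10 and JUNB were themselves more abundant after treatment, at 10.0, 477 and 471 CPM and at 69.2, 555 and 516 CPM, and the part of their level in these correlations was not tested.

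Ratios to DMSO were also taken within classes of cells, since the libraries differed in cell state. By phase scores, 40.8% of DMSO cells, 61.8% of those in RAC1i and 56.3% of those in Combo were in G1, and 30.7%, 13.2% and 22.6% were in S. RAC1i over DMSO was over 2-fold for 9 of 10 genes in all 13 classes examined. These were G1, S and G2/M, 3 groups by total UMIs, 3 groups by mitochondrial share, and cells high or not in chemokines or metallothioneins. Phases were scored on each library alone, and the other classes were cut within each library. The ratios are therefore not ratios at equal cell state. The highest group by mitochondrial share had a median of 9.04% for DMSO but 3.77% after RAC1i. The lowest group by total UMIs was closer, with medians of 7340 and 8013 UMIs. Metallothionein genes with a mean of at least 10 CPM had a median log2 ratio of 5.34 in RAC1i over DMSO. Of the 7702 genes with a mean of at least 10 CPM, called abundant genes from here on, 7.78% were over 2-fold higher in all 13 classes, and 11.3% to 16.6% in a single class. The abundant genes include 7 of the 10 genes, all but DUSP6, SPRY4 and ETV5, and all 7 were over 2-fold higher in every class. For those low in DMSO the minimum of 10 CPM itself favored this, so 7.78% is not a fair comparison. The classes are overlapping cuts of the same cells and not separate checks. The ratio of PHLDA1 ran from 33.2 to 186 over these classes, that of DUSP4 from 22.7 to 93.1 and that of DUSP1 from 3.68 to 8.61. For ETV5 it ran from 0.912 to 1.84. The largest ratios rest on few DMSO UMIs, as few as 9 for PHLDA1 and 12 for DUSP4. In Combo over DMSO, DUSP5 was under 2-fold in 1 class and DUSP6 in 2, with lowest ratios of 1.99 and 1.79, and ETV5 ran from 1.12 to 2.04. In that comparison 6.36% of abundant genes were over 2-fold higher in all 13 classes.

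Total UMIs per cell related to most of the genes in unlike ways before and after treatment. Cells of each library were put into 3 equal groups by depth, and the deepest group was compared with the shallowest in CPM. In DMSO 1 of 10 genes was lower in the deepest group (PHLDA1, at a ratio of 0.986), against 33.6% of abundant genes, and the median ratio over the 10 was 1.36, against 1.12 over abundant genes. In RAC1i all 10 were lower there, against 34.6% of abundant genes, with a median of 0.771 against 1.13. In Combo all 10 were again lower, against 34.2%, with a median of 0.695 against 1.17. Of the 7 abundant ones 1 was lower in DMSO and 7 in each treated library. Intervals included 1 for SPRY4 (0.665 to 3.39), ETV5 (0.963 to 1.58) and PHLDA1 (0.477 to 2.29) in DMSO and for ETV5 (0.704 to 1.01) in RAC1i, and PHLDA1 was below 1 in all 3 libraries. DUSP6 was at 21.4 CPM in the shallowest and 9.41 CPM in the deepest RAC1i cells, a ratio of 0.441 (0.399 to 0.487), and SPRY4 at 19.4 and 8.67 CPM, a ratio of 0.448 (0.404 to 0.498). In DMSO the ratio of DUSP6 was 1.79 (1.31 to 2.50). The shallowest group had a median of 7340 UMIs and a mitochondrial share of 1.27% in DMSO, 8013 UMIs and 2.89% in RAC1i, and 7410 UMIs and 3.33% in Combo. In the deepest group the mitochondrial share was 5.65%, 1.27% and 1.27%, so it moved with depth in opposite directions before and after treatment. The cells were therefore also put into 3 equal groups by mitochondrial share. The highest group over the lowest was above 1 for 6 of 10 genes in DMSO, against 55.6% of abundant genes. In RAC1i it was above 1 for 3 of 10, against 61.7%, and in Combo for 3 of 10, against 54.2%. Of the 7 abundant ones it was above 1 for 4, 1 and 1. The median over the 10 genes was 1.18, 0.859 and 0.961, and over abundant genes 1.04, 1.08 and 1.03. These groups differed in depth too, with medians of 26294 UMIs in the highest and 9008 in the lowest group of DMSO, 11070 and 26444 in RAC1i, and 9492 and 31492 in Combo, and the parts of depth and mitochondrial share were not separated. In RAC1i, DUSP1 was at 54.2 CPM in the highest group and 81.0 CPM in the lowest, a ratio of 0.669 (0.641 to 0.699), whereas DUSP5 was at 17.8 and 12.2 CPM (1.46, 1.34 to 1.60) and DUSP6 at 14.0 and 10.9 CPM (1.29, 1.17 to 1.42). SPRY4, as low as DUSP6 in the deepest cells, was at 1.05 (0.946 to 1.16). In Combo the ratios were 0.714 for DUSP1, 1.56 for DUSP5, 1.54 for DUSP6 and 1.27 for SPRY4, and in DMSO they were 1.22 for DUSP1, 1.77 for DUSP6 and 0.682 for ETV4.

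**Figure D4:**
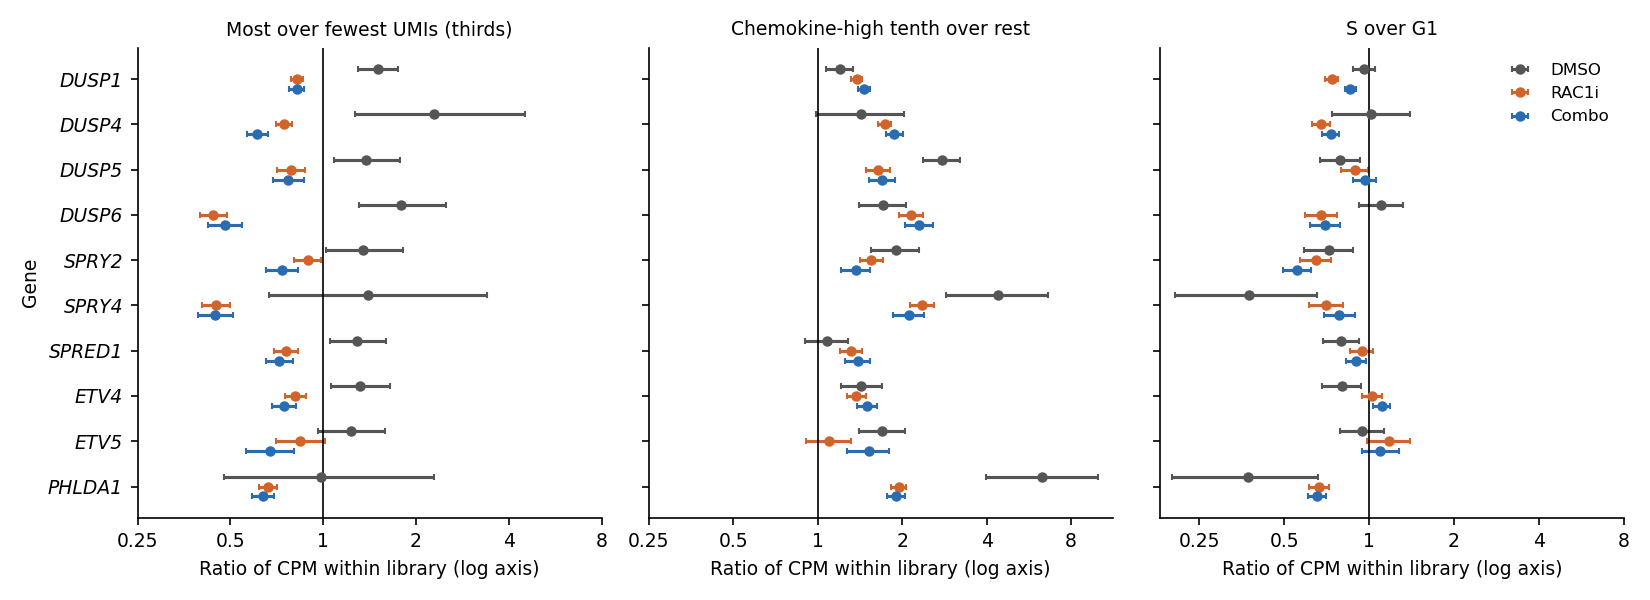
Ratio of CPM between groups of cells within each library for the 10 genes, on a log axis with exact 95% counting intervals: left, the third of cells with the most UMIs over the third with the fewest; middle, the tenth highest in chemokines over the other cells; right, S over G1 by phase score. In RAC1i and Combo all 10 genes lie below 1 on the left and above 1 in the middle.

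The genes were higher in cells that were high in chemokines, although 3 of the 30 intervals included 1. The 10% of cells of each library with the largest share of UMIs in CXCL1, CXCL2, CXCL3, CXCL8 and IL6 were set against the rest. The genes' ratio was above 1 for all 10 in DMSO, against 54.5% of abundant genes, for all 10 in RAC1i, against 30.8%, and for all 10 in Combo, against 28.8%. Their median ratio was 1.71, 1.60 and 1.61, and that of abundant genes was 1.01, 0.916 and 0.903. In RAC1i, SPRY4 was at 22.5 CPM in chemokine-high cells and 9.55 CPM in the rest (ratio 2.36, 2.13 to 2.60), DUSP6 at 23.0 and 10.7 CPM (2.16, 1.96 to 2.37) and PHLDA1 at 54.5 and 28.0 CPM (1.95, 1.83 to 2.07). ETV5 was at 5.65 and 5.15 CPM there, with an interval that included 1. In DMSO the intervals of SPRED1 (1.08, 0.904 to 1.29) and DUSP4 (1.43, 0.987 to 2.03) included 1. Median depth was alike in both groups in RAC1i, at 19869 and 21122 UMIs. In DMSO the ratios of PHLDA1 and SPRY4 were 6.32 (3.97 to 9.99) and 4.39 (2.86 to 6.65), from 82 and 105 UMIs in all.

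In the 10% of cells with the largest share of UMIs in metallothioneins, the ratio was above 1 for all 10 genes in RAC1i, against 25.8% of abundant genes, and for all 10 in Combo, against 22.8%. The median over the 10 genes was 1.43 and 1.39, and that of abundant genes was 0.777 and 0.727. Intervals included 1 for SPRY2 in RAC1i and for DUSP5 and SPRED1 in Combo. In DMSO SPRED1 was at 0.757 (0.589 to 0.961), SPRY2 at 0.942 (0.687 to 1.26) and DUSP1 level at 1.00 (0.865 to 1.15), and the other 7 were above 1 with intervals that did not include it. Above 1 stood 43.9% of abundant genes, and the median was 1.46 over the 10 genes and 0.982 over abundant genes. Metallothionein-high cells were shallower, at 7757 UMIs against 22588 in RAC1i, and depth itself moved with these genes. ETV4 was at 43.4 CPM in metallothionein-high RAC1i cells and 23.0 CPM in the rest, a ratio of 1.89 (1.71 to 2.07).

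The genes were also lower in S than in G1 for 8 of 10 in each library, against 48.1% of abundant genes (DMSO), 35.3% (RAC1i) and 43.5% (Combo). In RAC1i the ratio of S to G1 was 0.647 (0.571 to 0.732) for SPRY2, 0.665 (0.612 to 0.722) for PHLDA1, 0.675 (0.591 to 0.769) for DUSP6 and 0.676 (0.628 to 0.726) for DUSP4. ETV4 and ETV5 were the exceptions in the treated libraries, at 1.03 and 1.18 in RAC1i. In DMSO the exceptions were DUSP6, at 1.10 (0.917 to 1.32), and DUSP4, at 1.02 (0.740 to 1.39), while ETV4 and ETV5 were at 0.8003 and 0.941. Intervals also included 1 for DUSP1 (0.874 to 1.05) and ETV5 (0.787 to 1.13) in DMSO, for SPRED1 (0.858 to 1.03), ETV4 and ETV5 in RAC1i, and for DUSP5 (0.877 to 1.06) and ETV5 in Combo. Of the 7 abundant ones 6 were below 1 in each library.

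Other genes of the pathway were counted by lists, again among genes with a mean of at least 10 CPM, of which 13.3% were called higher and 19.1% lower in RAC1i over DMSO. Of 3 other phosphatases with that mean, DUSP10 and DUSP16, which act on p38 and JNK, were called higher in RAC1i over DMSO at log2 ratios of 1.78 and 1.41. Of the 3 under the minimum, DUSP2 was at 1.06 CPM in DMSO and 11.5 CPM in RAC1i and DUSP7 at 2.99 and 4.70 CPM, while DUSP9 was lower in RAC1i, at 1.36 and 0.651 CPM. Of 3 other Sprouty and SPRED genes, SPRED3 was called higher, from 6.03 to 29.3 CPM. SPRY1 and SPRED2, at 12.0 and 10.6 CPM in DMSO, stayed within 2-fold. Their ratios were 1.65 and 1.53 in RAC1i and 1.22 and 1.43 in Combo. SPRY3, under the minimum, was at 1.28 CPM in DMSO and lower after treatment, at a ratio of 0.737 (0.613 to 0.886) in RAC1i and 0.567 (0.461 to 0.696) in Combo. Of 6 genes in the list of other ERK output, 4 were called higher and PHLDA3 was called lower, at 60.9 CPM in DMSO and 13.1 CPM in RAC1i. PHLDA3 is known as a target of p53, and it and PHLDA2 share a family name with PHLDA1. The count is therefore not one of ERK output genes alone. The 4 called higher were IER3 (log2 ratio 2.93), EPHA2 (2.19), CCND1, which encodes cyclin D1 (1.53), and PHLDA2 (1.38). Besides ETV1, FOSL1 and LIF were under the minimum, at 1.09 CPM in DMSO and 3.54 CPM in RAC1i and at 6.18 and 8.91 CPM.

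Of 10 immediate early genes, 5 were called higher in RAC1i over DMSO (KLF10, ATF3, JUNB, IER5 and IER2), against 13.3% of abundant genes, and 2 were called lower, a share near the 19.1% of abundant genes. KLF10 and ATF3 were at log2 ratios of 5.57 and 4.48. EGR1, a standard target of ERK through serum response factor, was at 63.6 CPM in DMSO, 19.6 CPM after RAC1i and 20.3 CPM after Combo, a ratio of 0.308 (0.298 to 0.319) in RAC1i. FOSB was at 55.7, 18.0 and 14.6 CPM. FOS, not called, was at 101 CPM in DMSO, 68.5 CPM after RAC1i and 75.3 CPM after Combo. The 4 genes of this list under the minimum were higher in RAC1i than in DMSO. EGR2 was at 2.33 against 0.266 CPM, EGR3 at 1.27 against 0.191 CPM, KLF4 at 10.4 against 3.91 CPM and KLF2 at 4.83 against 3.06 CPM.

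Upstream genes were counted in the same way. Receptor tyrosine kinases were counted without the Eph receptors, and EPHA2, called higher above, is one of these. Of the 5 counted 0 were called higher and 3 lower in RAC1i over DMSO, with FGFR1 at 28.8 and 4.33 CPM, EGFR at 65.0 and 11.4 CPM and ERBB4 at 32.3 and 6.83 CPM. Of 8 under the minimum, 3 were over 2-fold higher (FGFR3, AXL and PDGFRA) and 3 over 2-fold lower (ERBB2, FGFR4 and INSR). PDGFRA rested on 4 UMIs in DMSO and 30 in RAC1i. For genes under the minimum, in this and the other lists, no share over all such genes was taken. Genes high in DMSO alone fall under it more easily, so lower genes there are partly set by the minimum. Of 2 ligands, HBEGF, which activates EGFR and ERBB4, was called higher, at 2.46 CPM in DMSO against 34.0 CPM after RAC1i and 35.7 CPM after Combo, and FGF18 was called lower, from 158 to 55.1 CPM in RAC1i. Of 8 ligands under the minimum with more than 3 UMIs in both libraries, TGFA, EPGN and FGF2 were over 2-fold higher in RAC1i. EPGN rested on 17 UMIs in DMSO and 54 in RAC1i. BTC, which also activates EGFR and ERBB4, was over 2-fold lower, at 15.2 CPM in DMSO, 1.35 CPM after RAC1i and 1.37 CPM after Combo. TGFA, a ligand of EGFR, was at 1.68, 5.84 and 5.86 CPM. Of 17 genes of the cascade from GRB2 to ERK, 0 were called higher and 2 lower, MAP2K2 (MEK2) at 140 and 53.6 CPM and MAPK3 (ERK1) at 27.7 and 10.5 CPM. These 2 of 17, and the 1 of 7 around RAC1, are no larger a share than the 19.1% of abundant genes called lower, and are not a result about those lists. Of 7 ERK substrates and ETS repressors 0 were called in either direction, but both genes of that list under the minimum were over 2-fold lower. RPS6KA2, an RSK kinase, was at 14.5 CPM in DMSO and 1.94 CPM in RAC1i (0.133, 0.120 to 0.147), and ELK3, an ETS repressor, at 11.1 and 2.75 CPM (0.248, 0.227 to 0.271). Of 7 genes around RAC1, TIAM1, an exchange factor for RAC1, was called lower, from 34.3 to 10.4 CPM. Of 6 genes of AU-rich mRNA decay, a route that clears many short-lived transcripts, ZFP36 and ZFP36L2 were called higher, at log2 ratios of 2.02 and 1.21. In Combo over DMSO the calls in these lists, among abundant genes, were the same except that DUSP16 and ZFP36L2 were not called, at 0.92 and 0.84. In addition PTPN11, the phosphatase SHP2 that helps to activate RAS, was called lower at -1.02. It was at -0.96 in RAC1i over DMSO, so it lay near the 2-fold limit in both. With it 3 of 17 cascade genes were called lower in Combo, a share near the 17.2% of abundant genes. Kinase activity and phosphorylated ERK were not measured here.

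**Figure D5:**
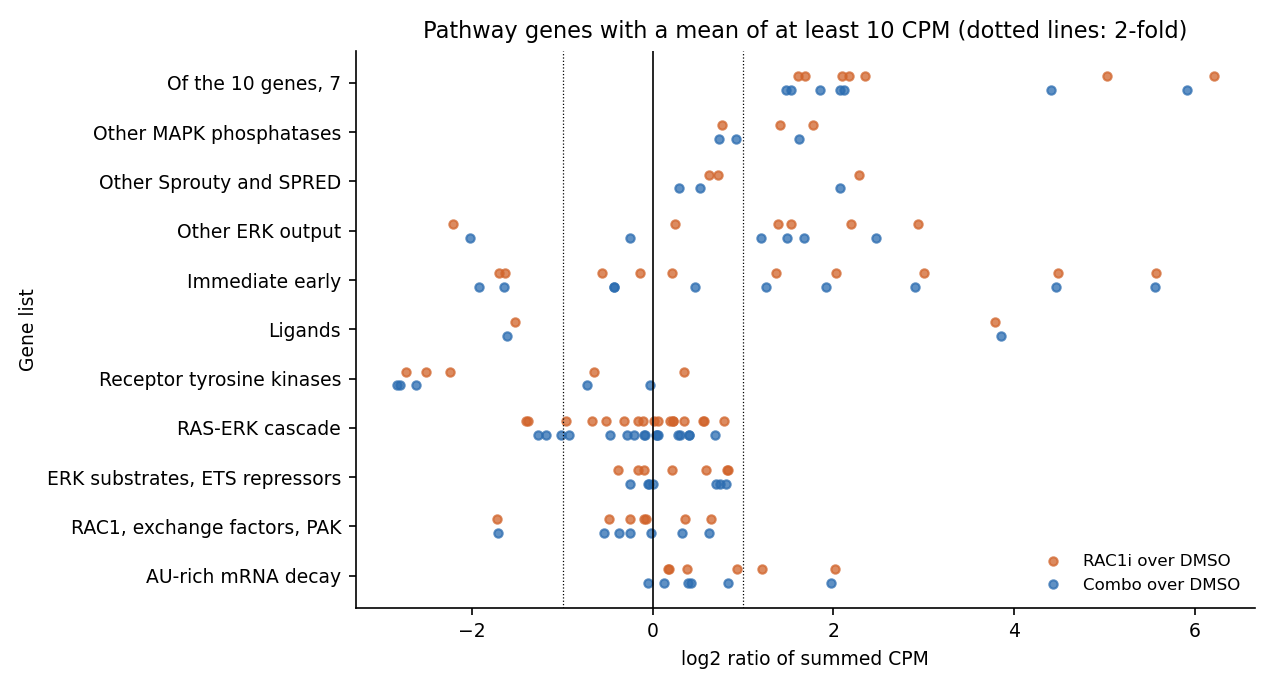
Log2 ratio to DMSO of each gene with a mean of at least 10 CPM in 11 gene lists, 1 point per gene and comparison, with dotted lines at 2-fold. The points of DUSP1, DUSP4, DUSP5, SPRY2, SPRED1, ETV4 and PHLDA1 lie above 1 in both comparisons, while immediate early genes spread from -1.93 (FOSB, Combo) to 5.57 (KLF10, RAC1i).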

How the data were processed

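Gene expression in single cells of 3 OVCAR3 libraries was analysed from the counts deposited by the authors, whole numbers of UMIs per gene and barcode, not normalized. The authors aligned to GRCh38 with Cell Ranger, version 4.0.0 in the submitters' processing notes. The doses come from the study's methods.

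The limits of those methods were used for cells: a complexity score over 0.8, more than 1000 genes, and no more than 20% of UMIs from mitochondrial genes. UMIs were summed over kept cells per library and expressed as CPM, with exact Poisson intervals for levels, conditional intervals for ratios and Clopper-Pearson intervals for shares, all at 95%. Doublets were not removed. Cells were thinned to 5000 UMIs for shares and correlations, which left out 806, 1015 and 885 shallower cells of DMSO, RAC1i and Combo. Phases came from Seurat 5.3.0, TMM factors from edgeR 4.0.16 and size factors from DESeq2 1.42.0, the last pair for alternatives only. Other steps used Python 3.11.15 with scipy 1.17.1. Poisson counts of 1000 genes were simulated with levels from DMSO and the UMI totals of RAC1i and DMSO. The intervals covered the true ratio in 94.9% of cases. They assume counts of this kind, so this checks the calculation and not whether the assumption holds in these data.

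The 10 genes, the gene lists, the cell classes and the alternatives were chosen with earlier results of these data known. Genes to be named were all 10, RAC1 and EZH2, and at most 4 genes per list past 2-fold against DMSO. The 3 genes most like each gene detected in at least 2% of thinned cells of every library were named too. Outside this rule, PHLDA2, EGR1, FOSB and IER2 were named as further genes past 2-fold, and SPRY1 and SPRED2 as genes within 2-fold. KLF10 and JUNB as partners of DUSP1, PAX8, MUC16, WT1, COL1A1, PECAM1, FOS and the list genes under 10 CPM were named, and the groups by mitochondrial share were added, after values were seen.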

Additional observations from a re-analysis of the deposited data

How the results depend on the processing

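Ratios to DMSO kept their direction and their side of 2-fold in all 140 recalculations of the 10 genes, over other limits on cells, other scalings, means over cells and thinning. A scaling moves all genes of a comparison by the same amount, so those recalculations are not separate checks for each gene. The largest move was 0.63 on the log2 scale, for DUSP6 in Combo over DMSO, which was 1.90 as a mean over cells in place of 1.27. By the same mean over cells, DUSP6 in RAC1i over DMSO was 2.29 in place of 1.68 and SPRY4 in Combo over DMSO was 4.57 in place of 3.95. Combo over RAC1i kept its direction in all 70. At a 1.5-fold limit, 1 gene (DUSP4) was called lower in Combo over RAC1i in place of 0. The median correlation over pairs of DUSP1, SPRED1 and ETV4 was -0.0256 in DMSO with a mitochondrial limit of 10%, in place of 0.0034. With thinning to 10000 UMIs it was 0.0471 in RAC1i and 0.0499 in Combo, in place of 0.0201 and 0.0268. Of 150 shares of cells recalculated, 91 left their counting interval, 89 of them among the 90 at another depth. No paired analysis was possible because each condition was 1 library.

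Counting intervals do not cover variation between cultures, so none of the differences between libraries has a replicate check. Levels of DUSP4, SPRY4 and PHLDA1 in DMSO rest on 252, 105 and 82 UMIs. Fewer transcripts per cell and fewer captured molecules cannot be told apart, and mRNA levels do not report ERK activity.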
